A study of Mus musculus with 12 samples.

Results

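The genes described here are 31 genes of GABA and glycine signalling, taken by name out of the 49671 genes of the deposited tables: the enzymes that make GABA, the vesicular and membrane transporters, the chloride cotransporters that set the response, the receptor subunits and the scaffold that holds the receptors at the synapse. They were measured by bulk RNA-seq in sorted, GFP-positive motor neurons of the mouse embryonic brainstem, in 12 libraries that fall into 6 groups of 2 replicates (A and B): the oculomotor nucleus (cMN3), the trochlear nucleus (cMN4) and the facial nucleus (cMN7), each at embryonic day e10.5 and at e11.5. All groups were wildtype and carried the same reporter, Isl-MN:GFP, from 129S1/C57BL/6J fathers crossed with C57BL/6J mothers. Litters were merged to reach the cell number needed and embryo sex was not determined, so each library is a pool of embryos. The reporter marks cells that use a motor neuron enhancer of Isl1, and the libraries hold whatever cells passed that gate. The e10.5 RNA was amplified by a whole-transcriptome method and for e11.5 an oligo-dT selection was combined with removal of ribosomal RNA and beta-globin, so that age and preparation cannot be told apart.

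GABA and glycine are the main inhibitory transmitters of the mature brainstem and spinal cord. GABA is made from glutamate by the glutamate decarboxylases GAD67 (Gad1) and GAD65 (Gad2), both transmitters are loaded into vesicles by the transporter VIAAT (Slc32a1), and they open the chloride channels formed by GABA-A and glycine receptors, while GABA-B receptors act through G proteins. Whether an open chloride channel depolarises or hyperpolarises a cell depends on its internal chloride, which NKCC1 (Slc12a2) raises and KCC2 (Slc12a5) lowers. Motor neurons are cholinergic and are known as receivers of inhibitory input rather than as its source.

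Levels below are CPM (a gene's counts relative to the library total), scaled between libraries by TMM, and are used for comparisons of one gene between libraries. Comparisons between genes use TPM, which account for gene length. Differences were tested by edgeR's quasi-likelihood test over all 18022 genes with enough counts, with Benjamini-Hochberg adjustment, and a gene was called at an adjusted p below 0.05. Of the 31 members, 24 had enough counts to be tested. The other 7 (Gabra6, Gabrd, Gabrp, Gabrr1, Gabrr3, Glra3 and Glra4) had between 0 and 21 counts over all 12 libraries. The labelled cell type was present in every group: each of 14 motor neuron markers had counts in all 6 groups, and their summed level was 5389 to 14650 CPM per library. Tbx20, a transcription factor of facial motor neurons, had group means of 1555 CPM in cMN7 at e10.5 and 687 CPM in cMN7 at e11.5, against 0.376 to 20.6 CPM in the cMN3 and cMN4 groups. The e10.5 libraries held 13991802 to 21464350 counts, of which ribosomal RNA genes took 8.86% to 30.2%, and the e11.5 libraries 21938601 to 30536210 counts, with 0.0509% to 0.571% in those genes. In bulk libraries, fewer cells that express a gene and less RNA per cell cannot be told apart.

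By TPM the members spanned a wide range. Gabbr1, the GABA-binding subunit of the GABA-B receptor, had the highest mean level, 214 TPM over the 12 libraries, followed by Slc12a5 with 31.8 TPM, the scaffold gene Gphn (gephyrin) with 23.7 TPM and Slc12a2 with 14.99 TPM. Gad2 (9.48 TPM), Glra2 (8.53 TPM), Gabra3 (7.91 TPM), Slc6a9 (6.74 TPM), Gabrb2 (5.94 TPM) and Gabra2 (4.68 TPM) came next. Means between 0.908 and 4.05 TPM were seen for 6 members, and the remaining 15 lay below 0.8 TPM.

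**Figure D1:**
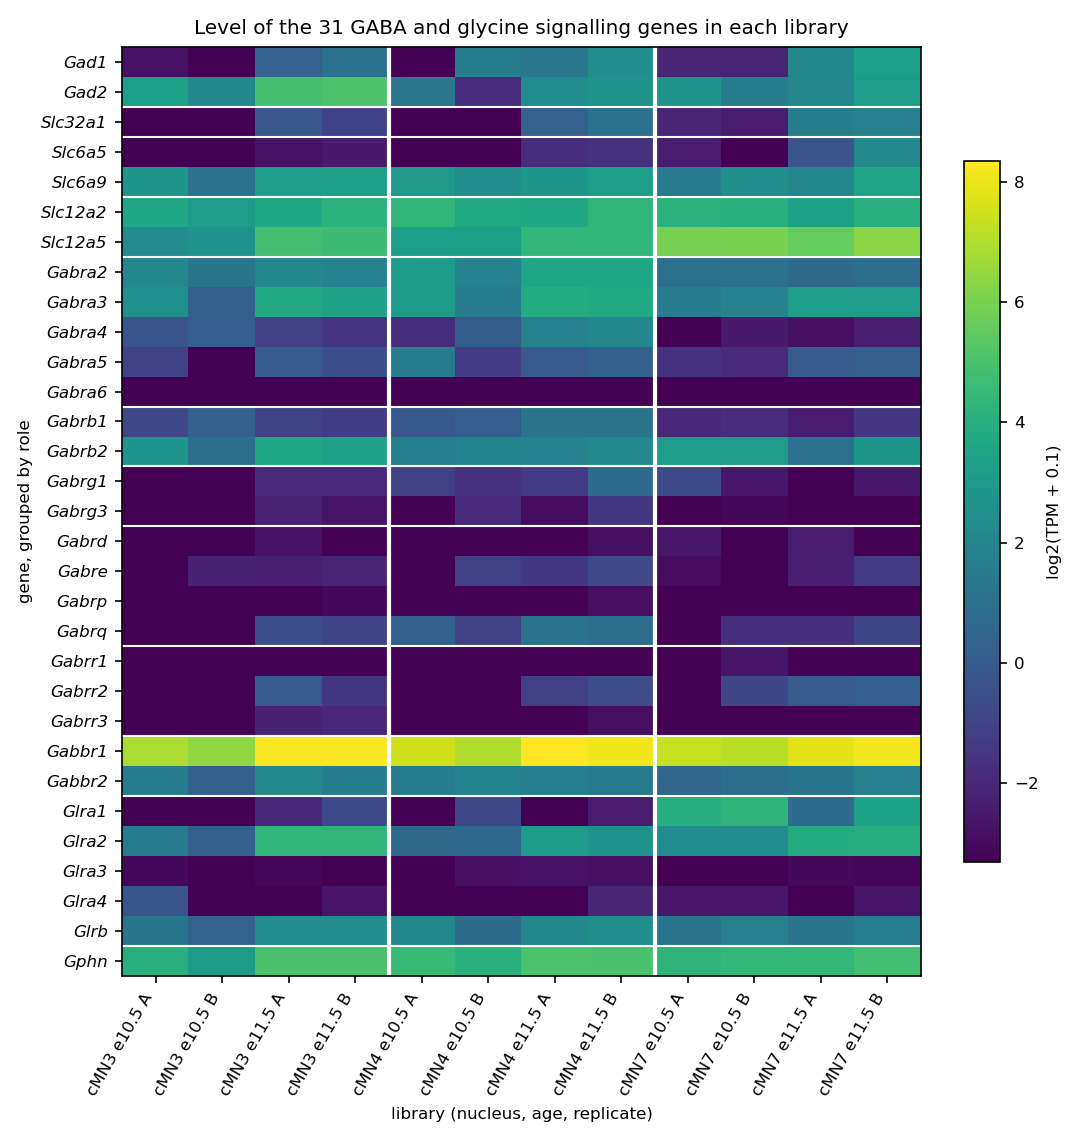
Level of the 31 members (rows, grouped by role) in the 12 libraries (columns, grouped by nucleus and age), as log2(TPM + 0.1) on the colour scale. Gabbr1 is the brightest row in every library, Glra1 is bright in cMN7 alone, and Slc32a1 and Slc6a5 are near the floor at e10.5, as is Gad1 except in replicate B of cMN4 (2.98 TPM).

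The members differed between the nuclei in both directions. In cMN3 against cMN7 over both ages, 4 of the 24 tested members were higher and 4 lower, where 5.44% of all tested genes were called higher and 5.89% lower. In cMN4 against cMN7, 5 were higher and 4 lower, beside 4.73% and 4.89% of all genes. In cMN3 against cMN4, 2 were higher and 3 lower, beside 3.57% and 3.48% of all genes. The median log2 fold change of the tested members was 0.06 in cMN3 against cMN7, 0.44 in cMN4 against cMN7 and -0.67 in cMN3 against cMN4, where the medians of all genes were 0, -0.01 and 0.002. These 3 comparisons share libraries pairwise and are not independent of each other.

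**Figure D2:**
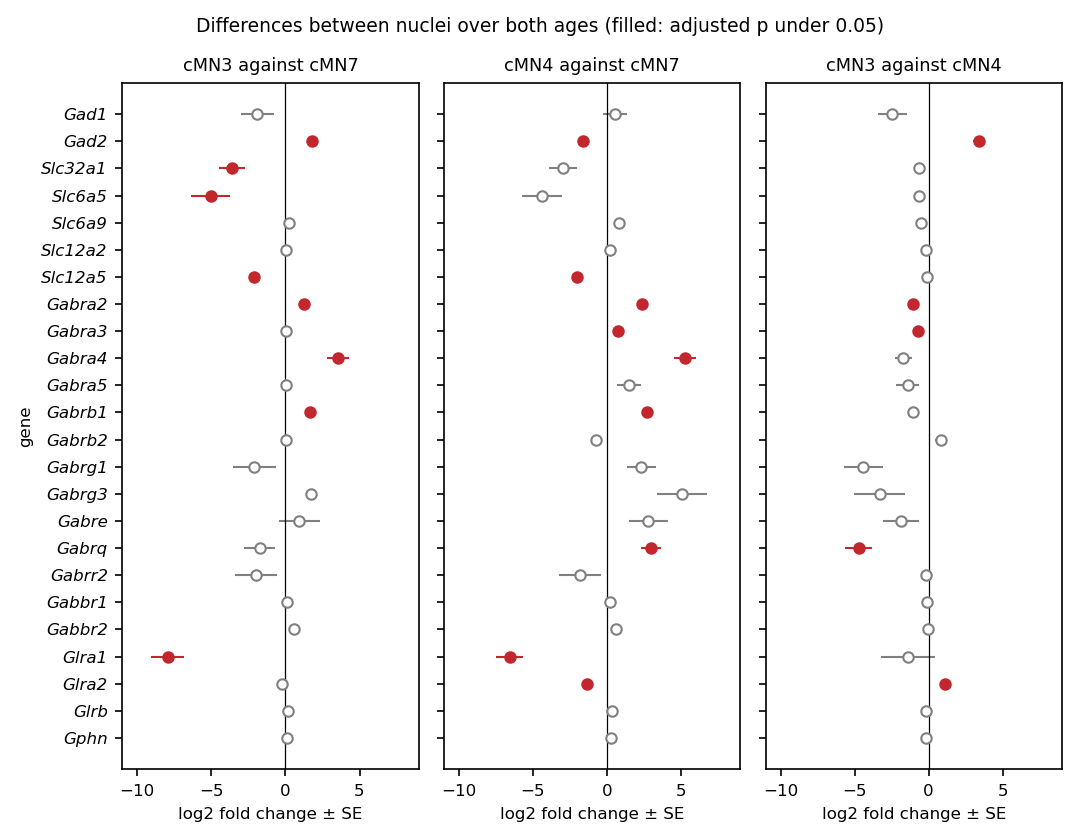
Log2 fold change ± SE of the 24 tested members (rows) over both ages for the 3 pairs of nuclei (panels), with filled red points at an adjusted p below 0.05. Slc12a5 and Glra1 lie left of 0 in both comparisons with cMN7, Gabra2, Gabra4 and Gabrb1 lie right of 0 in both, and Gad2 lies right of 0 in cMN3 and left of 0 in cMN4. Points without a bar had a test statistic too close to 0 for an SE.

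Gad2 separated the nuclei most clearly among the genes of synthesis and release. In cMN3 it stood at 29.8 and 12.96 CPM at e10.5 and at 75.4 and 74.8 CPM at e11.5 (replicates A and B). In cMN4 it stood at 1.52 and 0.755 CPM at e10.5 and at 10.98 and 14.0 CPM at e11.5. The cMN7 libraries held 11.2 and 7.40 CPM at e10.5 and 8.68 and 20.3 CPM at e11.5. Each cMN3 library was thus above every library of the other nuclei of its age, cMN4 was below cMN7 at e10.5, and cMN4 and cMN7 overlapped at e11.5. Over both ages Gad2 was higher in cMN3 than in cMN7 (log2 fold change 1.79, SE 0.31, adjusted p = 0.00278) and higher in cMN3 than in cMN4 (3.38, SE 0.36, adjusted p = 0.000173), and lower in cMN4 than in cMN7 (-1.59, SE 0.35, adjusted p = 0.0138). The last call was lost without replicate B of cMN4 at e10.5 (adjusted p = 0.0717) and without replicate A of cMN7 at e10.5 (adjusted p = 0.0606). On log2(TPM + 1) tested with limma, the calls of cMN3 (adjusted p = 0.0633) and cMN4 (adjusted p = 0.379) against cMN7 were both lost.

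The other genes that a GABA- or glycine-releasing cell uses were low and did not share this pattern. Gad1, the second GABA-making enzyme, was at 0 to 1.13 CPM in the 6 libraries of e10.5, and at e11.5 at 1.43 and 1.97 CPM in cMN3, 2.04 and 5.45 CPM in cMN4 and 4.79 and 9.55 CPM in cMN7. In cMN3 at e11.5 Gad2 stood at 30.2 and 34.0 TPM and Gad1 at 1.17 and 2.04 TPM. In cMN7 at e11.5 both enzymes lay close together, with 3.91 and 8.71 TPM of Gad2 and 4.07 and 9.59 TPM of Gad1. The main edgeR test called no difference in Gad1 between nuclei over both ages. Without the count filter Gad1 was lower in cMN3 than in cMN4 over both ages (log2 fold change -2.46, adjusted p = 0.00748). Leaving out replicate A of cMN4 at e10.5 gave -3.03 for the same comparison. With the replicate letter as a block at e11.5 it was lower in cMN3 than in cMN7 (log2 fold change -2.03, adjusted p = 0.0139).

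Slc32a1 (VIAAT) had no counts in either cMN3 or cMN4 library of e10.5 and 5 counts in cMN7 at e10.5. At e11.5 it stood at 0.978 and 0.468 CPM in cMN3, at 1.41 and 2.20 CPM in cMN4 and at 4.14 and 3.90 CPM in cMN7. Slc6a5, the neuronal glycine transporter GLYT2 that refills glycinergic terminals, followed with 0.150 and 0.234 CPM in cMN3, 0.314 and 0.671 CPM in cMN4 and 2.66 and 13.3 CPM in cMN7 at e11.5. The e11.5 libraries of the 3 nuclei did not overlap for either gene, with cMN7 highest. Both were called lower in cMN3 than in cMN7 over both ages (Slc32a1 adjusted p = 0.0287, Slc6a5 adjusted p = 0.036), and their fitted fold changes there depend on the prior count because cMN3 had no counts at e10.5. These calls were fragile. Slc32a1 lost its call without either cMN7 library of either age, without replicate A of cMN3 at e10.5 or without either cMN3 library of e11.5 (adjusted p 0.0538 to 0.116), and Slc6a5 lost its call without any of the 4 cMN3 libraries, replicate A of cMN7 at e10.5 or replicate B of cMN7 at e11.5 (adjusted p 0.0757 to 1) and on log2(TPM + 1) tested with limma (adjusted p = 0.101). Within e11.5, Slc6a5 was lower in cMN3 than in cMN7 (log2 fold change -5.32, SE 1.20, adjusted p = 0.0382), which was lost without either cMN3 library of e11.5 or replicate B of cMN7 at e11.5 (adjusted p 0.223 to 0.319). With the replicate block at e11.5, Slc32a1 was also called in cMN3 against cMN7 (-2.51, adjusted p = 0.0243) and Slc6a5 in cMN4 against cMN7 (-3.81, adjusted p = 0.00516).

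The summed markers of inhibitory interneurons moved with these genes at e11.5, with cMN4 and cMN7 set apart only through a pair of markers. The summed level of 18 transcription factors of such neurons was 25.5 and 31.1 CPM in cMN3, 52.2 and 99.3 CPM in cMN4 and 165 and 188 CPM in cMN7 at e11.5, the same order of nuclei as Slc32a1 and Slc6a5. Without Gata2 and Gata3 the other 16 summed to 21.8 and 27.2 CPM in cMN3, 45.7 and 91.7 CPM in cMN4 and 41.5 and 90.1 CPM in cMN7. The cMN4 and cMN7 libraries then overlapped, and both cMN3 libraries stayed below them. The median log2 fold change of the 13 tested markers in cMN4 against cMN7 at e11.5 was 0.60. At e10.5 the sum of the 18 was 13.8 and 18 CPM in cMN3, 25.1 and 28.7 CPM in cMN4 and 549 and 497 CPM in cMN7, where Gad1, Slc32a1 and Slc6a5 were at or near 0. Most of the cMN7 sum came from 2 genes, Gata2 with a mean of 205 CPM and Gata3 with a mean of 225 CPM at e10.5. The other 16 still summed highest in cMN7 at e10.5, with 70 and 115 CPM. They summed to 12.9 and 16.6 CPM in cMN3 and 24.2 and 26.6 CPM in cMN4 at that age. The paper describes an element of the GATA2 locus, cRE2, as accessible in cMN7 at that age. Whether Gata2 and Gata3 came from the labelled motor neurons or from other cells was not tested. Ptf1a and Helt, which specify inhibitory neurons, had no counts in cMN7 at either age. Of the 18 genes, 13 were tested, and 1 was called higher and 5 lower in cMN3 than in cMN7, 3 higher and 4 lower in cMN4 than in cMN7, and 0 higher and 3 lower in cMN3 than in cMN4. The smallest p belonged to Gata3 and Gata2 in cMN3 against cMN7 (log2 fold changes -6.78 and -6.72) and in cMN4 against cMN7 (-6.75 and -5.49), and to Pax2 (-4.55, adjusted p = 0.00181) and Pax8 (-3.11, adjusted p = 0.0047) in cMN3 against cMN4. Gad2 took another order, highest in cMN3, where the marker sum was lowest. Single markers did not all follow the sum. Tal2 stood at 2.64 to 5.35 CPM in cMN3, 0.660 to 2.74 CPM in cMN4 and 0.0595 to 0.441 CPM in cMN7. Helt stood at 0.564 and 0.335 CPM in cMN3 at e11.5. Of the 13 tested markers, 5 went the other way and were called lower in cMN3 than in cMN7. The part of such cells in the levels of Gad2, Gad1, Slc32a1 and Slc6a5 was not tested.

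**Figure D3:**
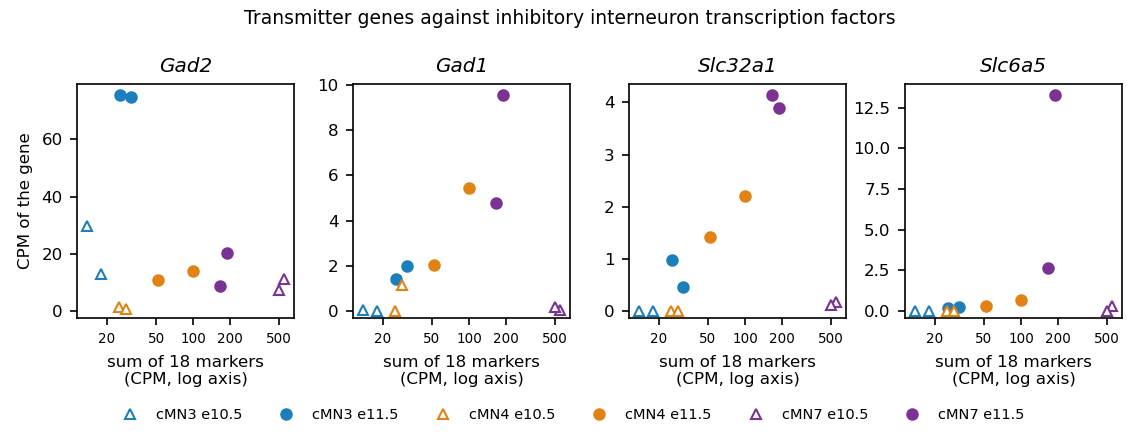
CPM of Gad2, Gad1, Slc32a1 and Slc6a5 (vertical axes, linear) against the summed CPM of 18 inhibitory interneuron transcription factors (horizontal axis, log) in the 12 libraries, with open triangles for e10.5 and filled circles for e11.5. Most of the cMN7 sum at e10.5 is Gata2 and Gata3. The 2 cMN3 libraries of e11.5 stand at 75.4 and 74.8 CPM of Gad2 with low marker sums, while Slc6a5 reaches 13.3 CPM in replicate B of cMN7 at e11.5.

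Slc6a9, the glycine transporter GLYT1 that is best known from glia, passed no test between nuclei. At e10.5 it stood at 2.59 and 2.09 CPM in cMN3, 3.85 and 5.10 CPM in cMN4 and 1.55 and 2.63 CPM in cMN7, and at e11.5 at 4.10 and 4.55 CPM, 4.51 and 4.78 CPM and 2.01 and 4.67 CPM in the same order. Its adjusted p in cMN4 against cMN7 was 0.2 (log2 fold change 0.78). It shares 1429 exonic bases with Ccdc24 on the opposite strand, and 697 exonic bases of Slc32a1 lie opposite Gm14205. Whether the counting used strand is not given in the sources used here, so reads of such partners may not be separated.

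Of the chloride cotransporters, Slc12a5 differed between the facial nucleus and the ocular motor nuclei and Slc12a2 passed no test between them. Slc12a5 (KCC2), which extrudes chloride, stood at 149 and 153 CPM in cMN7 at e10.5 and at 125 and 145 CPM in cMN7 at e11.5. In cMN3 it stood at 17.3 and 21.2 CPM at e10.5 and at 59.7 and 48.4 CPM at e11.5. In cMN4 it stood at 28.3 and 32.0 CPM at e10.5 and at 43.7 and 34.0 CPM at e11.5. Every cMN7 library was above every cMN3 and cMN4 library. Over both ages the gene was lower in cMN3 (log2 fold change -2.15, SE 0.13, adjusted p = 6.26e-07) and in cMN4 (-2.06, SE 0.13, adjusted p = 9.15e-07) than in cMN7, and both calls were kept in all 18 alternative analyses each. Between cMN3 and cMN4 the log2 fold change was -0.09 (SE 0.13, adjusted p = 0.777) over both ages and -0.65 (SE 0.18, adjusted p = 0.0522) at e10.5, where RLE size factors, DESeq2, the test without a count filter and the e10.5 libraries alone called it lower in cMN3 (adjusted p 0.0102 to 0.0429). At e11.5 the sign was the opposite, with both cMN3 libraries above both cMN4 libraries (0.48, SE 0.17, adjusted p = 0.298). The summed level of the 14 motor neuron markers also differed between the nuclei, with 12240 to 14650 CPM in the cMN7 libraries and 5389 to 9437 CPM in those of cMN3 and cMN4. Much of each sum was Nefl and Nefm, with 4913 and 6868 of 14650 CPM in replicate A of cMN7 at e11.5. In replicate B of cMN3 at e11.5 they held 1208 and 1860 of 5389 CPM. Isl1 stood at 491 to 565 CPM in cMN7 and at 377 to 694 CPM in cMN3 and cMN4. Against cMN7, 2 markers were called higher and 8 lower in cMN3, beside 5.44% and 5.89% of all genes. In cMN4, 1 was higher and 10 lower, beside 4.73% and 4.89%. The part of the 14 markers in the levels of Slc12a5, and of Glra1 below, was not tested.

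Slc12a2 (NKCC1), which loads chloride, varied less. At e10.5 it stood at 57.3 and 52.2 CPM in cMN3, 68.5 and 62.8 CPM in cMN4 and 57.9 and 55.2 CPM in cMN7. At e11.5 it stood at 38.0 and 48.4 CPM in cMN3, 36.5 and 53.6 CPM in cMN4 and 34.4 and 47.0 CPM in cMN7, with the nuclei overlapping at e11.5 and cMN4 above the other two at e10.5. Its log2 fold change was 0.02 (SE 0.15, adjusted p = 0.977) in cMN3 and 0.18 (SE 0.15, adjusted p = 0.556) in cMN4 against cMN7. The ratio of Slc12a5 to Slc12a2 TPM within a library was 3.39 and 3.82 in cMN7 at e10.5 and 4.63 and 4.92 in cMN7 at e11.5. In cMN3 the ratio was 0.391 and 0.728 at e10.5 and 2.24 and 1.47 at e11.5, and in cMN4 it was 0.462 and 0.731 at e10.5 and 1.64 and 1.03 at e11.5. At e10.5 the loader's transcript was thus the more abundant one in each of the 4 ocular motor libraries and the extruder's in both facial libraries, and at e11.5 the extruder's was the more abundant in all 6.

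The gap in Slc12a5 was smaller at the later age in cMN3. Against cMN7 its log2 fold change was -2.97 (SE 0.19, adjusted p = 3.62e-06) at e10.5 and -1.32 (SE 0.18, adjusted p = 0.00081) at e11.5, and the interaction of 1.66 (SE 0.25) was called (adjusted p = 0.0114). It was the single member called in this interaction, where 2.7% of all genes were called. The call was lost without replicate A of cMN3 at e11.5 (adjusted p = 0.0615) and without either replicate of cMN7 at e10.5 (adjusted p = 0.0734 and 0.0722), and also without replicate B of cMN3 and of cMN4 at e10.5 together, the 2 libraries richest in ribosomal RNA (adjusted p = 0.0646, an alternative chosen after the data were seen). In cMN4 the fold changes were -2.33 (SE 0.18, adjusted p = 1.51e-05) and -1.80 (SE 0.18, adjusted p = 9.94e-05). The interaction of cMN4 against cMN7 with age called 0 members by edgeR, where 0.333% of all genes were called. At an unadjusted p below 0.05 it gave 1 member, and DESeq2 called 1 member, Gad2 (log2 2.77, adjusted p = 0.00815).

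GABA-A receptors are pentamers, most often of alpha, beta and gamma subunits, and the alpha subunit shapes affinity and kinetics. Several subunit genes lie in clusters. On chromosome 5 (GRCm38, GENCODE vM21), Gabrg1 (70751047 to 70842617), Gabra2 (70957597 to 71095849) and Gabra4 (71569749 to 71658308) lie on the minus strand and Gabrb1 (71658113 to 72149037) on the plus strand. Gabra4 and Gabrb1 are head to head: their annotated bodies overlap by 196 bases, and 46 exonic bases are shared on opposite strands. In the RefSeq promoter table of GRCm38.p6, which held 28 of the 31 members, the Gabra4 start lies 387 bases downstream of the Gabrb1 start, so that each gene's body runs past the other's start. The windows of these 4 genes, 250 bases before to 50 bases after the start, are shown because 3 of them belong to genes called together and the fourth to their near-silent neighbour. Capitals mark GGGCGG, the core of the GC box, or its complement on the other strand, in Gabra2 and Gabra4, and TAATTA, a homeodomain core, in Gabrg1. The Gabrb1 window was searched for GGGCGG without a match and holds no capitals.
Gabra2 (chr5:71095800-71096099, minus strand): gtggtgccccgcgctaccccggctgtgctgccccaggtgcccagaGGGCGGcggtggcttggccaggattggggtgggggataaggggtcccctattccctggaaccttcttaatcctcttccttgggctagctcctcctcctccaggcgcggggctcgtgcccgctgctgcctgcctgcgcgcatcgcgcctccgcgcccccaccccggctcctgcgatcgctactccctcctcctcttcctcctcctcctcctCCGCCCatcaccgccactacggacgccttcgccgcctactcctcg
Gabra4 (chr5:71658259-71658558, minus strand): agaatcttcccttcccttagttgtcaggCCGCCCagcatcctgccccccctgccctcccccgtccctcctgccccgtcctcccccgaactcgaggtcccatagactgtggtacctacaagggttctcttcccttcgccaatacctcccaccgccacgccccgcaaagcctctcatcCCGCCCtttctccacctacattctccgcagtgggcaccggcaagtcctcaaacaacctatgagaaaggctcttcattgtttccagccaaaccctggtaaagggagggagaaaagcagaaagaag
Gabrb1 (chr5:71657671-71657970, plus strand): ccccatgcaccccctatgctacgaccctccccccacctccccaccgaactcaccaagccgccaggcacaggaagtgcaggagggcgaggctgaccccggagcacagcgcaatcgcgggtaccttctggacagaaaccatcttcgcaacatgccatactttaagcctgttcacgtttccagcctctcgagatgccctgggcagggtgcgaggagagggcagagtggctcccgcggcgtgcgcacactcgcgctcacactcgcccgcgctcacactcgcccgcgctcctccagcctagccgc
Gabrg1 (chr5:70842568-70842867, minus strand): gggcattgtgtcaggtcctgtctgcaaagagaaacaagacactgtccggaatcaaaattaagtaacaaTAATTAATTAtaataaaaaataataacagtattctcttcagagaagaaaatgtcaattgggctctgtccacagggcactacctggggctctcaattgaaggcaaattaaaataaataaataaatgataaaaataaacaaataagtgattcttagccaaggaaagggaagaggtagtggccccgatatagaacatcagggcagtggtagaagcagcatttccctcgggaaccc
The windows of Gabra2, Gabra4 and Gabrb1 were 70.0%, 58.7% and 66.0% G or C and held 25, 12 and 25 CG dinucleotides, while that of Gabrg1 was 38.3% G or C with 3 CG dinucleotides. The medians of all 32544 promoters of this length were 53% and 7. GGGCGG was found on either strand in 35.9% of those promoters and in 16 of the 28 members, among them Gabra2 and Gabra4 with 2 matches each, and was not found in the Gabrb1 window. TAATTA was found in 5.29% of all promoters and, among members, in Gabrg1 alone, where the 2 matches overlap. TATAAA was in 13.6% of all promoters and in 4 members (Gabra3, Gabrb2, Gad1 and Glra2), and AGATAA in 11.2% and in 3 (Gabrp, Gabrr3 and Glra4). For members with several windows in the table, 6 in all, the first was taken.

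Gabra2, Gabra4 and Gabrb1 were all lowest in cMN7, and all were highest in cMN4 at e11.5. Gabra2 stood at 18.7 and 10.1 CPM in cMN4 at e10.5 and at 22.3 and 18.8 CPM at e11.5, against 3.22 and 3.67 CPM and 3.36 and 3.34 CPM in cMN7. The cMN3 libraries lay between, with 12.04 and 8.0 CPM at e10.5 and 7.56 and 6.09 CPM at e11.5. Each cMN3 and cMN4 library was above each cMN7 library, and cMN3 and cMN4 overlapped at e10.5 but not at e11.5. Over both ages Gabra2 was higher in cMN4 (log2 fold change 2.34, SE 0.25, adjusted p = 6.33e-05) and in cMN3 (1.29, SE 0.24, adjusted p = 0.0045) than in cMN7. It was lower in cMN3 than in cMN4 (-1.06, SE 0.23, adjusted p = 0.0203), a call lost without replicate B of cMN3 at e10.5, either cMN3 library of e11.5, replicate A of cMN4 at e10.5 or replicate A of cMN4 at e11.5 (adjusted p 0.0534 to 0.101), and on log2(TPM + 1) tested with limma (adjusted p = 0.0803).

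Gabra4 was the scarcer alpha subunit and differed more. It stood at 6.24 and 5.77 CPM in cMN4 at e11.5, at 0.564 and 0.301 CPM in cMN3 and at 0.0819 and 0.184 CPM in cMN7 at that age. At e10.5 it stood at 1.53 and 1.57 CPM in cMN3, at 0.379 and 2.08 CPM in cMN4 and at 0 and 0.0611 CPM in cMN7, a single count in all. The ratio of counts at e10.5 against that 1 count was 51.2 for cMN3 (95% interval 8.75 to 2060) and 35.1 for cMN4 (5.8 to 1440), by the exact binomial method and for counting error only. In the test Gabra4 was higher than in cMN7 over both ages in cMN3 (log2 fold change 3.54, SE 0.76, adjusted p = 0.0102) and in cMN4 (5.24, SE 0.75, adjusted p = 0.000692). The cMN3 call was lost without replicate A of cMN7 at e10.5 (adjusted p = 0.0595). On log2(TPM + 1) tested with limma, the calls of cMN3 against cMN7 were lost for Gabra4 (adjusted p = 0.0914), Gabra2 (0.16) and Gabrb1 (0.159). At e11.5 Gabra4 was lower in cMN3 than in cMN4 (-3.78, SE 0.85, adjusted p = 0.0485), a call just inside the threshold that a replicate block over all libraries put just outside (adjusted p = 0.0502) and that was lost without any cMN3 or cMN4 library of that age or either cMN7 library of e10.5 (adjusted p 0.0638 to 0.46).

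Gabrb1, the beta subunit that starts opposite Gabra4, was also highest in cMN4 at e11.5 and lowest in cMN7. It stood at 5.81 and 4.72 CPM in cMN4 at e10.5 and at 9.53 and 7.57 CPM at e11.5, against 1.01 and 1.28 CPM and 0.614 and 1.25 CPM in cMN7. In cMN3 it stood at 4.44 and 4.78 CPM at e10.5 and at 2.67 and 2.01 CPM at e11.5. It was higher than in cMN7 in cMN4 (log2 fold change 2.69, SE 0.32, adjusted p = 0.000174) and in cMN3 (1.66, SE 0.32, adjusted p = 0.00499). Between cMN3 and cMN4 its adjusted p was 0.0622 over both ages (-1.03, SE 0.30) and 0.0531 at e11.5 (-1.87, SE 0.43), and DESeq2 called both (adjusted p = 0.0107 and 0.000761). The 46 shared exonic bases limit how far Gabra4 and Gabrb1 reads near their starts can be told apart. Gabrg1, the fourth gene of the cluster, had no counts in cMN3 at e10.5 and stood at 0.631 and 0.283 CPM in cMN4 and 0.595 and 0.122 CPM in cMN7 at that age. At e11.5 it stood at 0.226 and 0.201 CPM in cMN3, 0.392 and 1.96 CPM in cMN4 and 0 and 0.110 CPM in cMN7. It passed no main edgeR test, with an adjusted p of 0.203 in cMN4 against cMN7. DESeq2 (log2 fold change -3.86, adjusted p = 0.0329) and edgeR without the count filter (-4.38, adjusted p = 0.0238) called Gabrg1 lower in cMN3 than in cMN4 over both ages. Its highest level, in replicate B of cMN4 at e11.5, fell in the library with the highest summed level of neural crest and glial markers (93.0 CPM, against 10.6 to 49.5 CPM in the others) and of progenitor markers (1645 CPM, against 631 to 1385 CPM), and the part of such cells was not tested.

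**Figure D4:**
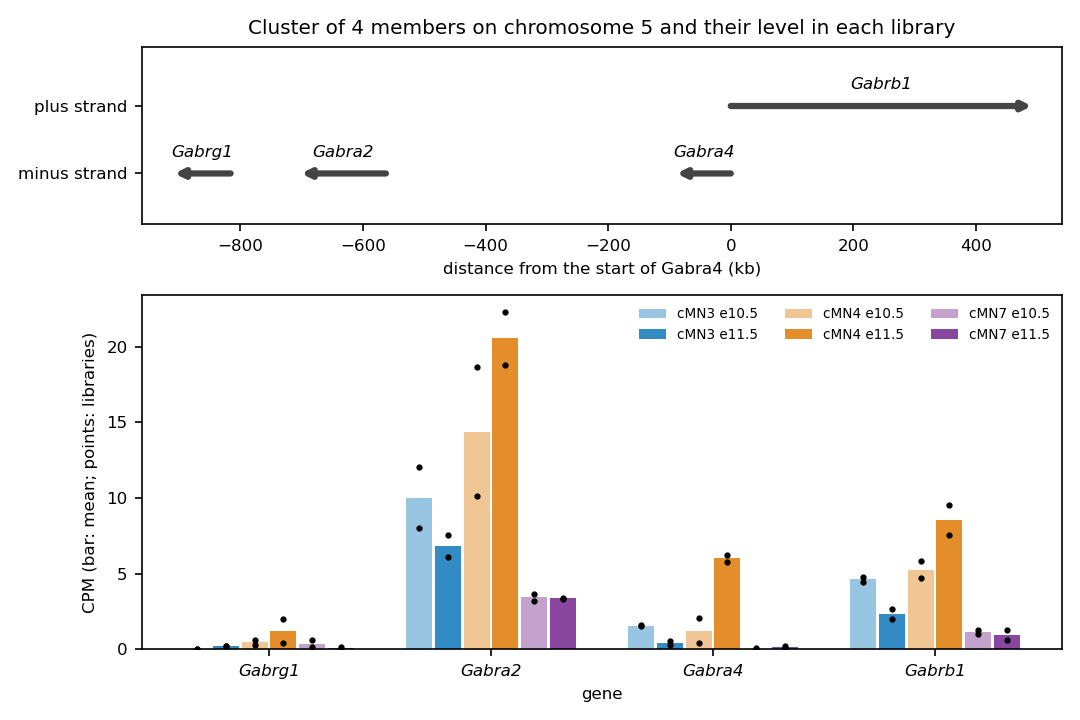
Top, the 4 members on chromosome 5 drawn to scale as arrows in the direction of transcription, by distance from the start of Gabra4 in kb. Bottom, their CPM by group (bars, mean; points, the 2 libraries), where cMN4 at e11.5 is the highest group for each of the 4 genes, with 22.3 and 18.8 CPM of Gabra2 and 6.24 and 5.77 CPM of Gabra4.

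On the X chromosome, Gabre, Gabra3 and Gabrq form a second cluster, with gaps of 158 kb between Gabre and Gabra3 and 168 kb between Gabra3 and Gabrq. Gabra3, an alpha subunit of immature neurons, was the most abundant of the 5 alpha subunits listed here by TPM in every library but replicate B of cMN3 and replicate B of cMN4 at e10.5, where Gabra2 was. It stood at 23.4 and 20.8 CPM in cMN4, 20.6 and 15.6 CPM in cMN3 and 15.5 and 12.7 CPM in cMN7 at e11.5, where the lowest cMN4 library was just above the highest cMN3 library and cMN3 and cMN7 came close. At e10.5 it stood at 9.22 and 6.89 CPM in cMN4, 3.64 and 3.74 CPM in cMN3 and 4.17 and 4.59 CPM in cMN7. Gabra3 was higher in cMN4 than in cMN7 (log2 fold change 0.77, SE 0.18, adjusted p = 0.0195) and lower in cMN3 than in cMN4 (-0.71, SE 0.18, adjusted p = 0.04). Both calls were fragile: the first was lost without either cMN7 library of e10.5, replicate A of cMN4 at either age or replicate B of cMN7 at e11.5 (adjusted p 0.0516 to 0.106), and the second without any one of 9 libraries, the exceptions being replicate B of cMN4 at e10.5 and both cMN7 libraries of e11.5 (adjusted p 0.0742 to 0.194). Both were also lost on log2(TPM + 1) tested with limma (adjusted p = 0.493 and 0.582).

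Gabrq, which encodes the theta subunit, followed Gabra3 at a lower level. At e10.5 it had 30 counts in cMN4 (1.01 and 1.32 CPM), none in cMN3 and 3 in cMN7. Against cMN7 at e10.5 the ratio of counts was 12.5 (95% interval 3.9 to 64.2). At e11.5 it stood at 3.61 and 3.22 CPM in cMN4, 1.09 and 0.903 CPM in cMN3 and 0.533 and 0.772 CPM in cMN7, and cMN4 did not overlap either. It was called higher in cMN4 than in cMN7 over both ages (log2 fold change 2.98, SE 0.66, adjusted p = 0.0162), which was lost without either cMN4 library of e11.5, replicate A of cMN7 at e10.5 or replicate A of cMN7 at e11.5 (adjusted p 0.0533 to 0.0594). It was called lower in cMN3 than in cMN4 (adjusted p = 0.0122), which was lost without either cMN3 library of e11.5 (adjusted p = 0.0559 and 0.0615). With the replicate block at e11.5, Gabrq was called at that age in cMN4 against cMN7 (2.38, adjusted p = 0.0131) and in cMN3 against cMN4 (-1.80, adjusted p = 0.0495), and Gabra3 in cMN4 against cMN7 (0.66, adjusted p = 0.0428). Gabre, the epsilon subunit, passed no test between nuclei and held 0 and 0.261 CPM in cMN3, 0 and 1.13 CPM in cMN4 and 0.0595 and 0 CPM in cMN7 at e10.5, and 0.188 and 0.234 CPM, 0.314 and 0.886 CPM and 0.205 and 0.184 CPM at e11.5.

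The mix of alpha subunits differed accordingly. Of the summed TPM of Gabra2 to Gabra6, Gabra3 made up 77.9% and 74.5% in cMN7 at e11.5, 71.5% and 70.6% in cMN3 and 48.0% and 46.1% in cMN4. Gabra2 made up 13.7% and 15.5% in cMN7, 21.8% and 23.8% in cMN3 and 38.1% and 37.0% in cMN4 at e11.5. Gabra4 made up 11.1% and 13.3% in cMN4 at e11.5 and at most 1.90% in the other e11.5 libraries. Gabra6, the alpha subunit of cerebellar granule cells, had no counts in any library, and Gabra5 passed no main edgeR test between nuclei. Without the 2 e10.5 libraries richest in ribosomal RNA, the log2 fold change of Gabra5 in cMN4 against cMN7 was 1.84 over both ages and 3.67 at e10.5. Replicate A, the higher of the pair for this gene, was then the only cMN4 library of e10.5. Gabra5 stood at 0.581 and 0 CPM in cMN3, 2.78 and 0.472 CPM in cMN4 and 0.238 and 0.183 CPM in cMN7 at e10.5, and at 1.02 and 0.535 CPM, 0.981 and 1.15 CPM and 1.11 and 1.03 CPM at e11.5. At e10.5 the shares were less even between replicates, with Gabra3 at 25.4% to 61.4% over the 6 libraries.

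Gabrb2, the second beta subunit listed, stood at 9.77 and 4.26 CPM in cMN3, 5.75 and 7.45 CPM in cMN4 and 15.9 and 15.4 CPM in cMN7 at e10.5. At e11.5 it stood at 20.4 and 16.6 CPM in cMN3, 6.04 and 6.90 CPM in cMN4 and 3.52 and 11.9 CPM in cMN7. The highest nucleus thus differed between the ages, though its interaction with age in cMN3 against cMN7 did not pass the test (log2 2.40, SE 0.70, adjusted p = 0.101). That interaction was called by DESeq2 (2.41, adjusted p = 0.0175) and without replicate B of cMN7 at e11.5 (3.55, adjusted p = 0.00501). Of the remaining subunits, Gabrg3 had 62 counts in all and Gabrr2 58, both spread over 7 or fewer libraries, and neither was called between nuclei by the main edgeR test. Without the count filter Gabrg3 was called higher in cMN4 than in cMN7 over both ages (log2 fold change 5.06, adjusted p = 0.0196).

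**Figure D5:**
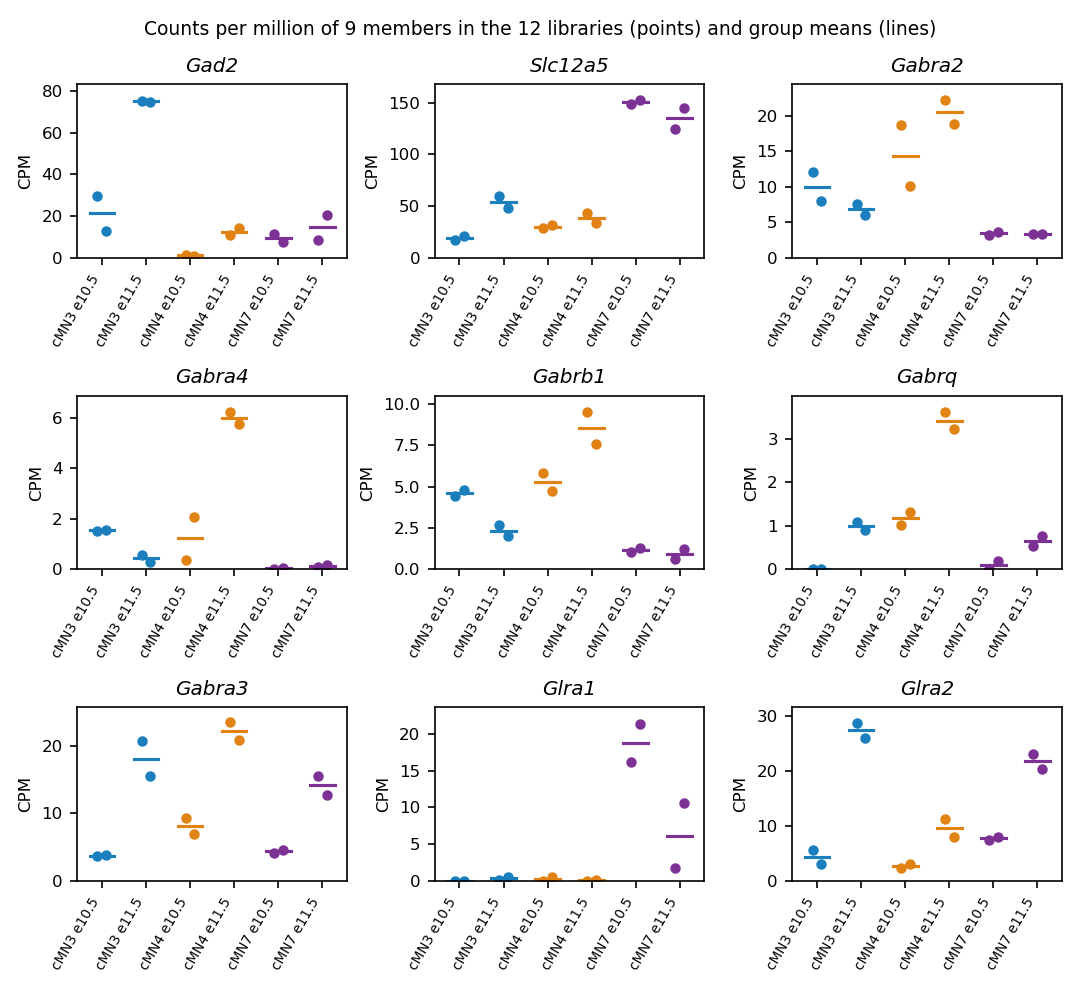
CPM of 9 members in each of the 12 libraries (points) with the group mean (line), on linear axes that start at 0. Gad2 is highest in cMN3 at e11.5 (75.4 and 74.8 CPM), Slc12a5 and Glra1 in cMN7, and Gabra2, Gabra4, Gabrb1 and Gabrq in cMN4 at e11.5.

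Glycine receptors are built from alpha subunits and the beta subunit Glrb, which binds gephyrin. Glra1, the alpha subunit of adult brainstem and spinal receptors, was nearly confined to cMN7. It stood at 16.2 and 21.4 CPM in cMN7 at e10.5 and at 1.72 and 10.6 CPM in cMN7 at e11.5. cMN3 had no counts at e10.5 and 0.150 and 0.502 CPM at e11.5, and cMN4 had 0 and 0.566 CPM at e10.5 and 0 and 0.0805 CPM at e11.5. Every cMN7 library was above every other. Against 622 counts in cMN7 at e10.5 and none in cMN3, with a floor of 3 counts over the group, cMN7 was at least 190-fold higher, and at e11.5 the 330 counts of cMN7 against the 3 of cMN4 gave a ratio of 134 (95% interval 45.3 to 652, counting error only). Glra1 was called lower than in cMN7 over both ages in cMN3 (adjusted p = 0.000908) and in cMN4 (log2 fold change -6.56, SE 0.92, adjusted p = 0.000875), and both calls were kept in all 18 alternative analyses each. At e11.5 alone, cMN3 against cMN7 missed the threshold (-4.20, SE 1.08, adjusted p = 0.0637) and passed it with the replicate block at that age (-4.12, adjusted p = 0.0036). The gene shares 141 exonic bases with Gm12236 on the opposite strand.

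Glra2, the alpha subunit of the fetal receptor, was present in all groups and lowest in cMN4. It stood at 28.8 and 26.1 CPM in cMN3, 23.2 and 20.4 CPM in cMN7 and 11.3 and 7.97 CPM in cMN4 at e11.5. At e10.5 it stood at 5.55 and 3.13 CPM in cMN3, 7.44 and 8.01 CPM in cMN7 and 2.40 and 3.11 CPM in cMN4. Glra2 was lower in cMN4 than in cMN7 over both ages (log2 fold change -1.34, SE 0.22, adjusted p = 0.00169), and this was kept in all 18 alternative analyses. It was higher in cMN3 than in cMN4 (1.097, SE 0.22, adjusted p = 0.0118), which was lost without replicate A of cMN3 at e11.5 (adjusted p = 0.06) or replicate A of cMN4 at e10.5 (adjusted p = 0.0535), and on log2(TPM + 1) tested with limma (adjusted p = 0.124). Of the summed TPM of the 4 glycine receptor alpha subunits, Glra1 made up 75.0% and 78.6% in cMN7 at e10.5 and 9.70% and 41.7% in cMN7 at e11.5, and Glra2 made up 73.3% to 100% in the cMN3 and cMN4 libraries. Glrb stood at 1.90 and 3.31 CPM in cMN3, 3.91 and 2.83 CPM in cMN4 and 3.04 and 3.79 CPM in cMN7 at e10.5, and at 5.15 and 4.92 CPM, 4.36 and 5.32 CPM and 2.498 and 3.67 CPM at e11.5. Gphn stood at 36.2 and 24.6 CPM in cMN3, 38.8 and 38.7 CPM in cMN4 and 29.7 and 33.8 CPM in cMN7 at e10.5, and at 46.5 and 44.2 CPM, 47.0 and 43.1 CPM and 34.4 and 39.9 CPM at e11.5. Neither was called between nuclei.

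GABA-B receptors need both subunits at the cell surface. Gabbr1 stood at 278 and 253 CPM in cMN3, 307 and 310 CPM in cMN4 and 237 and 242 CPM in cMN7 at e10.5, and at 502 and 451 CPM, 521 and 400 CPM and 444 and 435 CPM at e11.5. Gabbr2, its partner, stood at 8.29 and 5.91 CPM in cMN3, 8.65 and 10.2 CPM in cMN4 and 3.69 and 5.01 CPM in cMN7 at e10.5, and at 11.3 and 7.19 CPM, 8.16 and 6.68 CPM and 6.51 and 7.28 CPM at e11.5. For Gabbr1 the ages did not overlap within any nucleus. By TPM, Gabbr1 averaged 214 and Gabbr2 2.73. Neither was called between nuclei over both ages: Gabbr2 had log2 fold changes of 0.57 (adjusted p = 0.162) in cMN3 and 0.61 (adjusted p = 0.149) in cMN4 against cMN7.

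Within an age, fewer members passed. At e10.5, 5 members (3 higher, 2 lower) were called in cMN3 against cMN7, where 14.4% of all genes were called, 7 (3 higher, 4 lower) in cMN4 against cMN7, where 6.55% were, and 3 (1 higher, 2 lower) in cMN3 against cMN4, where 7.95% were. At e11.5, 3 members (1 higher, 2 lower) were called in cMN3 against cMN7 beside 4.13% of all genes, 6 (3 higher, 3 lower) in cMN4 against cMN7 beside 4.14% and 4 (2 higher, 2 lower) in cMN3 against cMN4 beside 1.85%. With the replicate letter as a block at e11.5 the counts were 7, 9 and 5. Slc12a5 was called against cMN7 in both nuclei at both ages. Gabra2, Gabra4 and Gabrb1 were called in cMN4 against cMN7 at both ages and in cMN3 against cMN7 at e10.5. Their e10.5 calls leaned on the cMN7 libraries: without replicate A of cMN7 at e10.5 all 6 were lost (adjusted p 0.0627 to 0.239), and without its replicate B all but Gabra2 in cMN4 were (0.0501 to 0.1). With the e10.5 libraries alone, Gabra4 lost its call in cMN3 (0.0584) and in cMN4 (0.118), and in cMN4 also without the 2 libraries richest in ribosomal RNA (0.128). On log2(TPM + 1) tested with limma 5 of the 6 were lost (0.09 to 0.357), Gabra4 in cMN3 being the exception. Gabra2 in cMN3 also lost its e10.5 call without replicate A of cMN3 (0.0695), Gabra4 in cMN4 without replicate B of cMN4 (0.159) and Gabrb1 in cMN4 without replicate A of cMN4 (0.0647), and at e11.5 Gabra4 in cMN4 lost its call without replicate A of cMN7 (0.0646). At e11.5 Gabra2 in cMN3 against cMN7 had an adjusted p of 0.161 (log2 fold change 1.02, SE 0.34) and of 0.0277 with the block (0.99).

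Glra1 and Glra2 were also called in cMN4 against cMN7 at both ages. Glra1 lost the call at e10.5 without replicate A of cMN4 or either cMN7 library of that age (adjusted p 0.055 to 0.0942), and at e11.5 without either cMN4 library of that age (0.0629 and 0.0636). Glra2 lost it at e10.5 without replicate A of cMN4 or either cMN7 library of that age (0.0811 to 0.13), and at e11.5 without any one of 9 libraries, the exceptions being both cMN3 libraries of e10.5 and replicate A of cMN4 at e11.5 (0.0523 to 0.38). In cMN3 against cMN4, Gabra3 and Gabrq were called at e10.5, and Gabra2, Gabra4 and Glra2 beside Gad2 at e11.5. The Gabra3 call was lost without any one of 7 libraries, either cMN3 library of either age, replicate A of cMN4 at e10.5 or either cMN7 library of e10.5 (0.0508 to 0.132), and the Gabrq call without either cMN3 library or replicate B of cMN4 at e10.5 (0.0514 to 0.0569). At e11.5 the Gabra2 call was lost without any cMN3 or cMN4 library of that age or either cMN7 library of e10.5 (0.0609 to 0.339), and the Glra2 call without either cMN3 library or replicate B of cMN4 of that age (0.12 to 0.213).

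Gad2 was called in cMN3 against cMN4 at both ages (log2 fold change 4.18, SE 0.55, adjusted p = 0.00176 at e10.5; 2.58, SE 0.45, adjusted p = 0.0109 at e11.5). Against cMN7 it was called at e11.5 in cMN3 (2.37, SE 0.44, adjusted p = 0.00844) and at e10.5 in cMN4 (-2.97, SE 0.56, adjusted p = 0.00721). The first of these was lost without replicate A of cMN7 at e11.5 (adjusted p = 0.0543), the second without replicate B of cMN4 at e10.5 (0.0735) or replicate A of cMN7 at e10.5 (0.0554), and the e11.5 call against cMN4 without replicate A of cMN3 (0.0564) or either cMN4 library of e11.5 (0.0542 and 0.057). On log2(TPM + 1) tested with limma these 4 calls were all lost, in cMN3 against cMN4 with adjusted p of 0.084 at e10.5 and 0.142 at e11.5, in cMN3 against cMN7 at e11.5 with 0.0738 and in cMN4 against cMN7 at e10.5 with 0.185. In cMN4 against cMN7 at e11.5 its log2 fold change was -0.21 (SE 0.43, adjusted p = 0.926).

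Between the ages, members were called higher more often and lower less often than all genes. At e11.5 against e10.5 over the 3 nuclei, 11 of 24 tested members were higher and 1 lower, where 26.6% of all genes were called higher and 23.1% lower, and the members' median log2 fold change was 0.88 against 0.04 over all genes. Gad1 rose from 1 count to 97 in cMN3, from 12 to 255 in cMN4 and from 4 to 377 in cMN7 (log2 fold change 4.72, SE 0.75, adjusted p = 0.000367). Slc32a1 and Slc6a5, at 0 counts in both cMN3 and cMN4 at e10.5, were also called higher (adjusted p = 6.76e-05 and 0.00222). Set against a floor of 3 counts over the group, Slc32a1 was at least 7.18-fold higher in cMN3 and at least 16.6-fold higher in cMN4 at e11.5. Gad2 was higher in each nucleus by its group means (1.95, SE 0.28, adjusted p = 0.000177), with the cMN7 libraries of the ages overlapping.

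Among the receptor genes, Glra2 (log2 fold change 1.98, SE 0.18, adjusted p = 8.59e-06) and Gabra3 (1.81, SE 0.15, adjusted p = 5.66e-06) were higher at e11.5 in every library of every nucleus. Gabrq (adjusted p = 0.00104), Gabrr2 (adjusted p = 0.0101, 2 counts at e10.5 and 56 at e11.5), Gabbr1 (0.77, SE 0.08, adjusted p = 3.04e-05) and Gphn (0.34, SE 0.11, adjusted p = 0.0215) were also called higher. Gphn lost its call without replicate A of cMN7 at e10.5 (adjusted p = 0.0581) and with RLE size factors (adjusted p = 0.051). Slc12a5 was called higher (0.57, SE 0.10, adjusted p = 0.000859), although its cMN7 libraries were at 149 and 153 CPM at e10.5 and 125 and 145 CPM at e11.5. Slc12a2 was called lower (-0.45, SE 0.12, adjusted p = 0.00951), a direction that turned on log2(TPM + 1) (0.003, adjusted p = 0.991). None of these differences can be told apart from the change of preparation between the ages.

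Of 32 further genes of the pathway (transporters, catabolic enzymes, receptor-associated proteins, glycine cleavage and chloride regulators), 30 were tested. In cMN3 against cMN7, 1 was higher and 3 lower (5.44% and 5.89% of all genes), and the pair with the smallest p were Kctd12 (log2 fold change -1.76, SE 0.15, adjusted p = 9.46e-06) and Kctd12b (5.03, SE 0.74, adjusted p = 0.000854), which encode related auxiliary proteins of GABA-B receptors. Kctd12b stood at 13.9 to 26.7 CPM in the 4 cMN3 libraries, at 0.126 to 7.06 CPM in cMN4 and at 0.246 to 1.01 CPM in cMN7, and Kctd12 at 10.47 to 23.2 CPM in cMN3, 17.3 to 32.4 CPM in cMN4 and 34.5 to 80.8 CPM in cMN7. In cMN4 against cMN7, 1 was higher and 4 lower (4.73% and 4.89% of all genes), led by Kctd12 (-1.16, SE 0.14, adjusted p = 0.000227) and Shisa7, a GABA-A receptor auxiliary subunit (-1.03, SE 0.15, adjusted p = 0.000617). In cMN3 against cMN4, 2 were higher and 1 lower (3.57% and 3.48% of all genes), led by Kctd12b (3.38, SE 0.68, adjusted p = 0.0131) and Gabarap, a receptor trafficking protein (0.59, SE 0.13, adjusted p = 0.0247). Between the ages 8 were higher and 6 lower at e11.5, near the share of all genes (26.6% and 23.1%). Among them were Lhfpl4, a partner of GABA-A receptors at the synapse (log2 fold change 0.73, SE 0.09, adjusted p = 6.05e-05), and Shisa7 (0.95, SE 0.12, adjusted p = 7.63e-05), both higher.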

How the data were processed

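GFP-positive cranial motor neurons were sorted by FACS, and reads were 100 bp paired-end. For each gene the authors deposited expected counts, not normalized, and TPM, both from RSEM after alignment by STAR against the Ensembl GRCm38.87 genome, and the deposited effective length of each gene (bases) was read but entered no test. The submitters' notes and methods name DESeq2 for their comparisons.

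Expected counts were rounded, genes were kept by the edgeR filter (a minimum count of 10 and a total of 15, 18022 genes), and TMM factors (0.732 to 0.967 for the earlier age, 1.11 to 1.22 for the later) were applied. Totals were 13991802 to 30536210 counts per library. A means model of 6 groups was tested by edgeR's quasi-likelihood test with 6 residual degrees of freedom. The SE is the log2 fold change divided by the root of F and is left out where F is near 0. A group at 0 counts was set against a floor of 3 counts. R 4.3.3, edgeR 4.0.16, limma 3.58.1 and DESeq2 1.42.0 were used. Coordinates come from GENCODE vM21 and promoters from RefSeq GRCm38.p6.

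Values per library are given for members called between nuclei or ages and for the most abundant uncalled member of each role, and for other pathway genes and marker lists the 2 genes of smallest p per comparison are named, except 1 pathway gene that is not reported here. Gabrr2 is given by its counts. The members and lists were chosen with earlier results of these data known. Replicates of a group differed by more than sampling noise (chi-square per degree of freedom 6.16 to 147). Replicate letters paired the samples at e11.5, where deviations from group means of same-letter libraries correlated at 0.401, 0.327 and 0.339, and not at e10.5 (0.039, -0.022 and 0.016). The pairing at e11.5 comes from this check, and no label says what a letter marks. The alternatives tried were RLE size factors, DESeq2, no count filter, limma on log2(TPM + 1), a replicate block, the libraries of one age alone and leaving out each library, plus the removal of 2 libraries together, chosen after the data were seen.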

Additional observations from a re-analysis of the deposited data

Results flagged for a closer look

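The difference of Slc12a5 (KCC2) between cMN3 and cMN7 itself differed between the ages by a test of that difference. The interaction was 1.66 on the log2 scale (SE 0.25, edgeR adjusted p = 0.0114), from -2.97 at e10.5 to -1.32 at e11.5, with all 4 cMN3 libraries below all 4 cMN7 libraries. It was the only member called among the 24 tested in this interaction by edgeR. Preparation changed with age in both nuclei, and its part in the interaction was not tested. No group held enough libraries for a test of a single outlying library.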

How the results depend on the processing

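Of 63 calls of a member in a comparison, 26 were kept in each of the settings run for them, 21 settings in all. DESeq2 and the test without a count filter kept 63 of 63, RLE size factors and the replicate block 62 each, limma on log2(TPM + 1) 37, the libraries of e10.5 alone 10 of 15, and the libraries of e11.5 alone and the replicate block at e11.5 13 of 13. Leaving out 1 library kept 643 of 756 values, with the most calls lost without replicate A (22) and replicate B (15) of cMN7 at e10.5. The 1 value that turned was Slc12a2 between the ages (0.003 on log2(TPM + 1)). The cause of these losses was not tested.

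In cMN3 against cMN7 over both ages 8 members were called, 3 on log2(TPM + 1) and 5 to 8 with 1 library left out. In cMN3 against cMN4 over both ages 5 were called, 8 by DESeq2, 9 without the count filter, 3 on log2(TPM + 1) and 1 to 6 with 1 library left out. At e10.5, cMN3 against cMN7 gave 5 members and 2 to 7 with 1 library left out. At that age cMN4 against cMN7 gave 7, 3 on log2(TPM + 1) and 1 to 8, and cMN3 against cMN4 gave 3, 6 without the count filter, 0 on log2(TPM + 1), 1 without the 2 libraries richest in ribosomal RNA and 1 to 4. At e11.5, cMN3 against cMN7 gave 3, 5 without the count filter, 7 with the replicate block at e11.5, 6 without those 2 libraries and 2 to 4, and cMN3 against cMN4 gave 4, 7 without the count filter, 2 on log2(TPM + 1) and 0 to 6. The interaction of cMN3 against cMN7 with age gave 1, 2 by DESeq2, 4 without the count filter, 0 without those 2 libraries and 0 to 3, and that of cMN4 gave 0, 1 by DESeq2, 1 without the count filter and 0 to 1. The other 3 counts stayed within 1.5 times: cMN4 against cMN7 over both ages (9, 6 to 10 with 1 library left out) and at e11.5 (6, 4 to 6) and the ages (12, 11 to 13). The removal of the 2 libraries was chosen after the data were seen and leaves 1 library in each of 2 groups, assumed to vary like the others.

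On log2(TPM + 1) the median of all genes moved to 0.33 between the ages, -0.21 in cMN3 against cMN7, -0.15 in cMN3 against cMN4, -0.53, -0.24 and -0.30 in the 3 comparisons at e10.5 (in the order above) and 0.63 and 0.35 in the interactions. The share of calls that were higher was then 76.5% (53.5% by edgeR) between the ages, 22.4% (48.0%) in cMN3 and 38.6% (49.1%) in cMN4 against cMN7, 34.8% (50.6%) in cMN3 against cMN4, 9.22% (51.8%), 24.6% (49.2%) and 24.9% (54.3%) at e10.5, and 87.4% (32.7%) and 90.9% (41.7%) in the interactions. With 2 libraries a group, low genes such as Slc6a5, Gabrg1 and Gabrr2 limit what could be called.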
